A study of Rattus norvegicus with 6 samples.

Results

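Neuron-labelled primary rat hippocampal cultures were compared after 12 h and after 6 h of 200 nM insulin, as the log2 value at 12 h minus the log2 value at 6 h. A gene entered when both libraries had a value for it and 1 or both reached 1 FPKM, a level per transcript length and library size. This held for 6662 of the 37183 symbols in the deposited table. A further 17024 symbols had a value in both libraries but stayed under that level, 1824 had a value at 6 h only, and 1842 at 12 h only. Of the last 2 reached 1 FPKM, both transfer RNA rows.

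The series, on brain lipid metabolism, profiled rat hippocampal astrocytes and neurons, each as a 0 h control, after 6 h and after 12 h of insulin. The controls are called saline-treated in one label and untreated in another. Each of the 6 groups was 1 library of total RNA, so no replicate error is known and no test was made. The neurons had been grown in serum-free Neurobasal medium with B27 and were moved 4 h before treatment to the same medium with an insulin-free supplement. The astrocyte-labelled cultures, used here for values side by side, were moved at the same time to medium with less serum and glucose before the same insulin exposures. The labels used here give no strain, age, sex or number of animals. No saline library at 6 h or 12 h was analysed here, so the duration of insulin and the time in insulin-free medium cannot be told apart.

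The markers show mixed cultures. At 6 h and 12 h of insulin the neuronal tubulin gene Tubb3 was at 32.5 and 33.7 FPKM, the GABA transporter gene of synaptic vesicles, Slc32a1, at 17.2 and 15.1 FPKM, and all 13 excitatory neuron markers found were below 1 FPKM in both libraries. The astrocyte filament gene Gfap was at 109 and 134 FPKM and the oligodendrocyte lineage factor gene Olig1 at 78.5 and 85.4 FPKM. All 11 endothelial markers found stayed at or below 0.0156 FPKM in both libraries. In such bulk RNA, fewer cells of a type and less RNA per cell cannot be told apart.

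As background, hippocampal interneurons make GABA through glutamate decarboxylases and store peptides such as somatostatin and neuropeptide Y in dense-core vesicles, whose cargo is packed with granins. Astrocytes clear glutamate and convert it to glutamine. When activated they build more intermediate filaments of vimentin, nestin and GFAP, and release chemokines through NF-kB signalling.

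The libraries at 12 h and 6 h were close. Across the 6662 genes, Pearson's r was 0.988, taken over genes, which are not replicates. The median difference was -0.01, and its quartiles were -0.12 and 0.12. At least 2-fold higher at 12 h were 37 genes (0.555% of genes compared) and at least 2-fold lower were 34 (0.51%). Of these, 24 and 22 were locus identifiers, pseudogene rows, or rRNA and small RNA symbols. Most of the other 13 and 12, such as Loxl4, Flnc, Npy and Kcna1, were under 1 FPKM in 1 library. They entered only through the library where they were higher, which favours large differences. With the floor set on the mean of both libraries the counts were 23 higher and 24 lower. At 1.5-fold the counts were 154 (2.31%) higher and 113 (1.7%) lower, with 1.07% at 2-fold in either direction. Among the 2037 genes at 5 FPKM or more, 3 were 2-fold higher (0.147%) and 11 lower (0.54%). At 1 to 2 FPKM 1.39% of genes passed 2-fold in either direction, against 0.642% at 20 FPKM or more. The share past 1.5-fold was larger among low genes as well, at 4.33% against 2.41%. The median size of the difference was not, at 0.12 in the first band and 0.13 in the second.

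**Figure D1:**
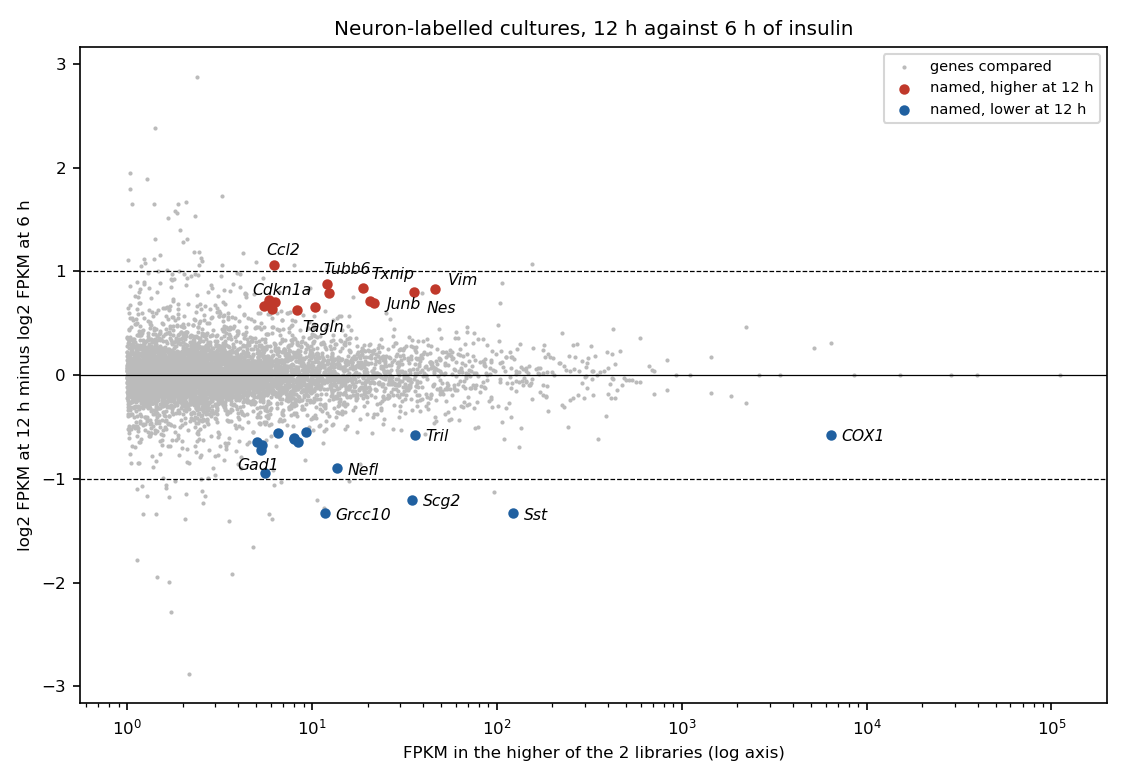
Each grey point is 1 of the 6662 genes, with the FPKM of its higher library on a log axis and the log2 difference between 12 h and 6 h on the other; dashed lines mark 2-fold, red and blue points the 15 named genes of each direction. Sst, Scg2 and Grcc10 lie below the lower line among abundant genes, and Ccl2 is the red point above the upper line.

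Neuropeptide and granin genes were lower at 12 h. Of 26 genes on that list, 11 were compared. Of these 4 fell at least 2-fold, 9 were below 0 (51.7% of all genes compared were), and their median difference was -0.50. On the list 11 genes reached 1 FPKM at 6 h and 9 at 12 h. Npy and Cort, counted among those that fell, thus entered only through the 6 h library, where they were higher. Somatostatin (Sst), the peptide of dendrite-targeting interneurons, was the most abundant of them. Its level was 154 FPKM without insulin, 122 at 6 h and 48.5 at 12 h, a difference of -1.33 between the insulin libraries. Secretogranin II (Scg2), a granin of dense-core vesicles, was at 34.2, 35 and 15.2 FPKM and fell by 1.20 on the log2 scale. For both, 12 h was the lowest library by a wide margin; at 6 h Scg2 sat at its control level and Sst somewhat below it.

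Promoter sequences are shown for the 3 neuropeptide genes whose window held the palindromic cAMP response element, the site of the activity-driven factor CREB. They are from RefSeq on build GRCr8, whereas the deposited values were made on Rnor 6.0. The windows searched ran from 250 bases before to 50 bases after each annotated start. TGACGTCA, which reads the same on both strands, was found in 3 of the 8 compared list members with a window, and in 4.24% of the windows of all compared genes. Capitals mark the element, and each run is printed in the direction of transcription. Sst is shown as 30 bases because the element begins at position 3 after the annotated start.
Sst, chr11:90461537-90461566, plus strand: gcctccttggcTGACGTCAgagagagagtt
Scg2, chr9:88256946-88257025, minus strand: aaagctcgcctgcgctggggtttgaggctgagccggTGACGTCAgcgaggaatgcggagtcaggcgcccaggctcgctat
Vgf, chr12:25277067-25277146, minus strand: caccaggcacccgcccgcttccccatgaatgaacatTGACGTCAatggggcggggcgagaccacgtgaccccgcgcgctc
The element starts at -123 in Scg2 and at -90 in Vgf. Of the 3 genes, Sst and Scg2 fell, whereas the growth factor-like granin gene Vgf was at 2.5, 1.87 and 1.98 FPKM, a difference of 0.08. A match of letters is a description and not a measured binding site.

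The other peptide genes were less abundant. Neuropeptide Y (Npy), which is released with GABA, had levels of 2.40, 1.74 and 0.358 FPKM, again control first, a difference of -2.28. Cortistatin (Cort), a relative of somatostatin, was at 4.77, 3.67 and 0.972 FPKM, a difference of -1.92. These were the largest differences of the list and were made at 4 FPKM or less in the insulin libraries. Proenkephalin (Penk) was at 5.53, 5.03 and 3.22 FPKM (-0.65), and chromogranin A (Chga) at 4.26, 4.03 and 2.86 FPKM (-0.50). Penk was at 110 FPKM in the astrocyte-labelled control, so which cells made it in these mixed cultures is not known. Chromogranin B (Chgb) was at 4.23 and 3.43 FPKM in the insulin libraries (-0.30). Cholecystokinin (Cck), the peptide of another interneuron class, stayed at 3.84, 4.08 and 4.14 FPKM. Among the 15 list members not compared, the prohormone convertase Pcsk1 was at 0.285 and 0.0957 FPKM, both under the level required.

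Interneuron and GABA synthesis genes showed a smaller shift. Of 23 on the list 21 were found and 14 compared, 11 of them below 0, with a median of -0.24. Npy and Sst, which this list also holds, were the 2 that reached 2-fold. Glutamate decarboxylase 1 (Gad1), which makes most of the GABA of the cell body, was at 5.78, 5.38 and 3.38 FPKM, a difference of -0.67. Gad2, the synaptic form, was at 1.56, 1.56 and 1.09 FPKM (-0.53). Lhx6, a transcription factor of somatostatin and parvalbumin interneurons, was at 1.52, 1.46 and 1.006 FPKM (-0.54). Each of these 3 was near the control at 6 h and below both at 12 h. The vesicular GABA transporter Slc32a1 (-0.19) and the interneuron factor Dlx1 (-0.13) differed less. Sp9, a factor of immature interneurons, was higher at 12 h than at 6 h, at 3.45 against 2.60 FPKM.

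Presynaptic genes were lower with few exceptions. Of 17 compared, 16 were below 0, with a median of -0.30, and none reached 2-fold. All 17 reached 1 FPKM at 6 h and 15 at 12 h, so some entered only through their higher library. Complexin 1 (Cplx1), a clamp on vesicle fusion, was at 3.42, 3.10 and 1.82 FPKM (-0.77). The vesicle protein genes Syp and Syngr3 were at 3.88 and 12.8 FPKM at 6 h and at 2.72 and 9.14 FPKM at 12 h. Sncb, a synuclein, was at 3.52 and 2.59 FPKM. Vamp2, the vesicle SNARE, differed by -0.06, at 17.4 and 16.7 FPKM. Synapsin 1 (Syn1) was the member above 0, at 1.33 and 1.59 FPKM.

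Receptor and channel genes were mostly too low to be compared. Of 26 glutamate and GABA receptor genes 3 were compared, all below 0: Grin1, the obligate NMDA receptor subunit, was at 1.66 and 1.19 FPKM. Among 5 voltage-gated and potassium channel genes compared, Kcna1 fell by 1.17 on the log2 scale, from 1.27 to 0.566 FPKM, and its relative Kcna6 was at 1.13 and 0.755 FPKM. With no floor on the level, 27 of 28 channel genes, 22 of 26 receptor genes and 24 of 27 presynaptic genes were lower at 12 h. Over the 23686 genes with a value in both libraries 49.5% were above 0. These low values have no known error.

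Pan-neuronal and cytoskeletal genes were divided. The neuron identity list had 14 members compared, 11 of them below 0, and a median of -0.17. Of its members 14 reached 1 FPKM at 6 h and 12 at 12 h, so some entered only through their higher library. Thy1, a surface glycoprotein of neurons that fibroblasts also make, fell by 1.39 on the log2 scale and was at 2.48, 2.07 and 0.790 FPKM. The light and medium neurofilament genes Nefl and Nefm were at 13.7 and 3.13 FPKM at 6 h and at 7.33 and 2.11 FPKM at 12 h, differences of -0.90 and -0.57. By contrast Tubb3 differed by 0.05, the migrating-neuron microtubule gene Dcx by 0.11 (6.08 and 6.56 FPKM) and the ubiquitin hydrolase gene Uchl1 by -0.04. Stathmins, microtubule proteins and growth cone genes had a median of -0.04 over 26 compared members, and 0 of them reached 2-fold. Summed FPKM of the neuron identity list was 105 at 6 h and 93.1 at 12 h, against 192 and 108 for the interneuron list. To the latter sums Sst gave 122 and 48.5 FPKM.

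**Figure D2:**
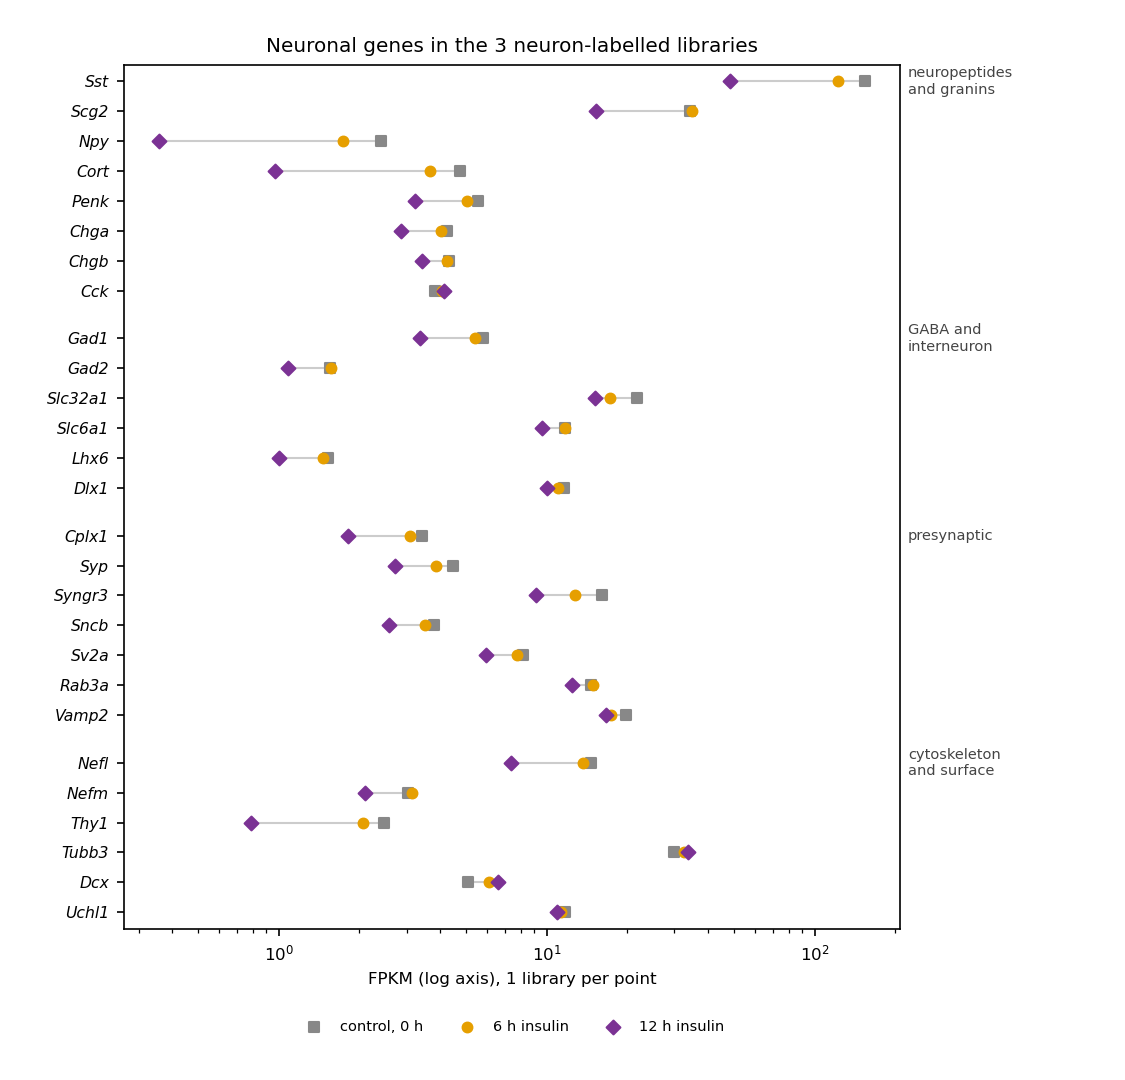
FPKM on a log axis of neuronal genes in the control (square), 6 h (circle) and 12 h (diamond) libraries of the neuron-labelled cultures, 1 library per point, joined by a line for each gene. For Sst, Scg2, Npy, Cort and Nefl the diamond stands far to the left of the other two points, while for Tubb3, Dcx, Uchl1 and Cck the points lie close together.

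Filament and reactive glial genes were higher at 12 h. All 9 compared members of the reactive astrocyte list were above 0 (48.3% of all genes compared were), their median was 0.62, and 0 of them reached 2-fold. Of that list 8 reached 1 FPKM at 6 h and 9 at 12 h. Vimentin (Vim), the filament of immature and activated glia, was at 23.5, 26.2 and 46.6 FPKM in the same order, a difference of 0.83. Nestin (Nes), a progenitor filament, was at 14.4, 20.3 and 35.5 FPKM (0.80). The 12 h library was the highest of the 3 for both. Gfap was at 96.7, 109 and 134 FPKM (0.30). The annexin partner S100a10 (0.907 and 1.73 FPKM), the hyaluronan receptor Cd44 (1.08 and 1.68 FPKM) and the small heat-shock protein Hspb1 (4.40 and 6.77 FPKM) were higher by 0.93, 0.63 and 0.62.

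Of the 27 other reactive list members found, all were under 1 FPKM in both libraries. With no floor, 32 of the 35 members with a value in both libraries were above 0. Classical reactive genes were among the lowest: Lcn2 was at 0.346 and 0.400 FPKM, complement C3 at 0.0499 and 0.108 FPKM, and Serpina3n at 0.00873 and 0.0357 FPKM. Tubb6, a tubulin of dividing and non-neuronal cells, was at 3.54, 6.58 and 12.1 FPKM (0.88), the second of the 15 named higher genes. The actin-binding gene Tagln was at 4.35, 6.53 and 10.3 FPKM (0.66). Flnc, a filamin of muscle, rose by 1.40, from 0.733 to 1.93 FPKM, and the collagen crosslinker gene Loxl4 by 1.89, from 0.347 to 1.29 FPKM. The caveolar coat gene Ptrf was at 0.816 and 1.65 FPKM (a difference past 2-fold).

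Of the markers of contractile and matrix cells, Tagln, Thy1 and Pdgfra, which oligodendrocyte precursors also make, reached 1 FPKM. With no floor, 9 of 10 pericyte and smooth muscle markers and 6 of 8 fibroblast and meningeal markers with a value in both libraries were above 0. Of 12 pericyte and smooth muscle markers, 11 were below 1 FPKM in both libraries. The defining gene Acta2 was at 0.00679 and 0.0149 FPKM and Myh11 was blank at 6 h. Their summed FPKM of 7.13 at 6 h and 11.05 at 12 h was almost all Tagln. The fibroblast collagen genes Col1a1 and Col3a1 were at 0.0246 FPKM or less. Microglial markers summed to 3.73 and 4.57 FPKM, and 17 of the 18 found were below 1 FPKM in both libraries. With no floor 12 of 16 microglial markers were above 0, among them C1qa (0.275 and 0.498 FPKM) and C1qc (0.163 and 0.422 FPKM), and Tmem119 was blank at 6 h. The part of these cells in the Tagln and chemokine values was not tested.

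Mature astrocyte genes went the other way or stayed level. Of 35 on the list 23 were compared, 15 of them below 0, and the median was -0.09 with 0 members at 2-fold. Aldolase C (Aldoc), a glycolytic enzyme of astrocytes, was at 73.9, 76.4 and 53.6 FPKM (-0.51). Glutamine synthetase (Glul) was at 106, 106 and 77.7 FPKM (-0.45), and the gap junction gene Gja1 at 22.6, 21.3 and 16.1 FPKM (-0.40). All 3 were near their control level at 6 h and lowest at 12 h. The water channel Aqp4 (29.4 and 26.4 FPKM) and the glutamate transporter Slc1a3 (11.1 and 9.18 FPKM) differed by -0.15 and -0.27. Apoe, the main lipid carrier of glia, was at 745, 752 and 832 FPKM (0.15), and the gliogenic factor Sox9 was higher, at 3.37 and 4.83 FPKM (0.52). Outside this list, Tril, a toll-like receptor partner that glia make, was among the named lower genes at 42.1, 36.2 and 24.3 FPKM (-0.58). In the astrocyte-labelled control it was at 1.77 FPKM.

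Oligodendrocyte lineage genes differed little. Precursor genes had a median of -0.11 over 12 compared and myelin genes one of -0.05 over 9, and 0 of either reached 2-fold. Olig1 differed by 0.12 and Olig2 by -0.02 (21.8 and 21.5 FPKM). The early myelin enzyme gene Cnp was at 32.1 and 29.1 FPKM, and the proteoglycan gene Bcan at 32.2 and 28.2 FPKM.

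Chemokine and NF-kB genes were higher at 12 h. Of 45 genes on the chemokine, cytokine and adhesion list 12 were compared, 11 of them above 0, with a median of 0.63. Only 10 of the list reached 1 FPKM at 6 h, against 12 at 12 h. With no floor 35 of 42 members with a value in both libraries were above 0. Ccl2, which draws monocytes, rose by 1.06 and stood at 1.05 FPKM without insulin, 3.0 at 6 h and 6.26 at 12 h. Csf1, the growth factor of microglia, was at 0.922, 1.24 and 2.43 FPKM (0.97), and Cxcl16 at 2.39, 2.56 and 4.39 FPKM (0.78). Cxcl1, a neutrophil chemokine, had reached its level by 6 h, at 2.90 and 2.95 FPKM. The neuronal chemokine Cx3cl1 was the member below 0, at 7.02, 5.92 and 4.57 FPKM (-0.37). The adhesion gene Icam1 was at 1.63 and 2.52 FPKM (0.63).

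Regulators of the same pathway were higher too. The inhibitor gene Nfkbia, itself switched on by NF-kB, was at 4.65, 5.34 and 8.26 FPKM (0.63), and the precursor subunit Nfkb2 was at 0.576, 0.644 and 1.012 FPKM (0.65). Irf1, a factor of the interferon and NF-kB responses, was at 0.969, 0.936 and 1.78 FPKM (0.93). The promoters of these 3 regulators are shown because each held the kappa-B consensus, a site of 10 bases searched on both strands, in capitals. It was found in 5 of 10 list members with a window, the other two being Cxcl1 and Vcam1, and in 4.70% of the windows of all compared genes.
Nfkbia, chr6:78597073-78597152, minus strand: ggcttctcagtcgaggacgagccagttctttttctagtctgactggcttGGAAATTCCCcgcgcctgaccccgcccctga
Nfkb2, chr1:255108294-255108373, plus strand: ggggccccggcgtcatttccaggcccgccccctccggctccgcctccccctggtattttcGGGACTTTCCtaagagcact
Irf1, chr10:38417835-38417914, plus strand: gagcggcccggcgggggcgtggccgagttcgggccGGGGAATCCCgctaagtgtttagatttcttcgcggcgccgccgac
The sites start at -31, -20 and -65 from the annotated starts. Cxcl1 and Vcam1, which held the consensus too, differed by 0.02 and 0.15. All 6 compared interferon-stimulated genes were above 0, with a median of 0.32, and they include Irf1, which the chemokine list also holds. Of that list 4 reached 1 FPKM at 6 h and 6 at 12 h, so some entered only through their higher library. With no floor 16 of 27 interferon-stimulated genes were above 0. Tap1, the peptide transporter of antigen presentation, was at 1.28 and 1.78 FPKM.

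Progenitor and Notch genes were divided. Of 17 compared, 12 were above 0, with a median of 0.17 and 0 at 2-fold. The list shares Vim and Nes with filament genes above. The Notch targets Nrarp (3.87 and 6.04 FPKM), Hes5 (2.85 and 4.30 FPKM) and Hes1 (3.23 and 4.70 FPKM) were higher by 0.64, 0.59 and 0.54. Nrarp and Hes5 had been lower at 6 h than in the control, at 4.54 and 3.58 FPKM, and Hes1 had not. The ligand Dll1 differed by -0.02 and the receptor gene Notch1 by 0.21, at 0.927 and 1.08 FPKM. The promoter of Hes1 is shown for its pair of TGGGAA sites, the core bound by the Notch cofactor CSL, in capitals and starting at -123 and -109.
Hes1, chr11:84213119-84213198, minus strand: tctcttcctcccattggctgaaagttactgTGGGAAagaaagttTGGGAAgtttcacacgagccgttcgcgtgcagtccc
On either strand that core was found in 3 of 14 list members with a window, Hes1, Hes5 and Dll1, and in 22.5% of the windows of all compared genes.

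**Figure D3:**
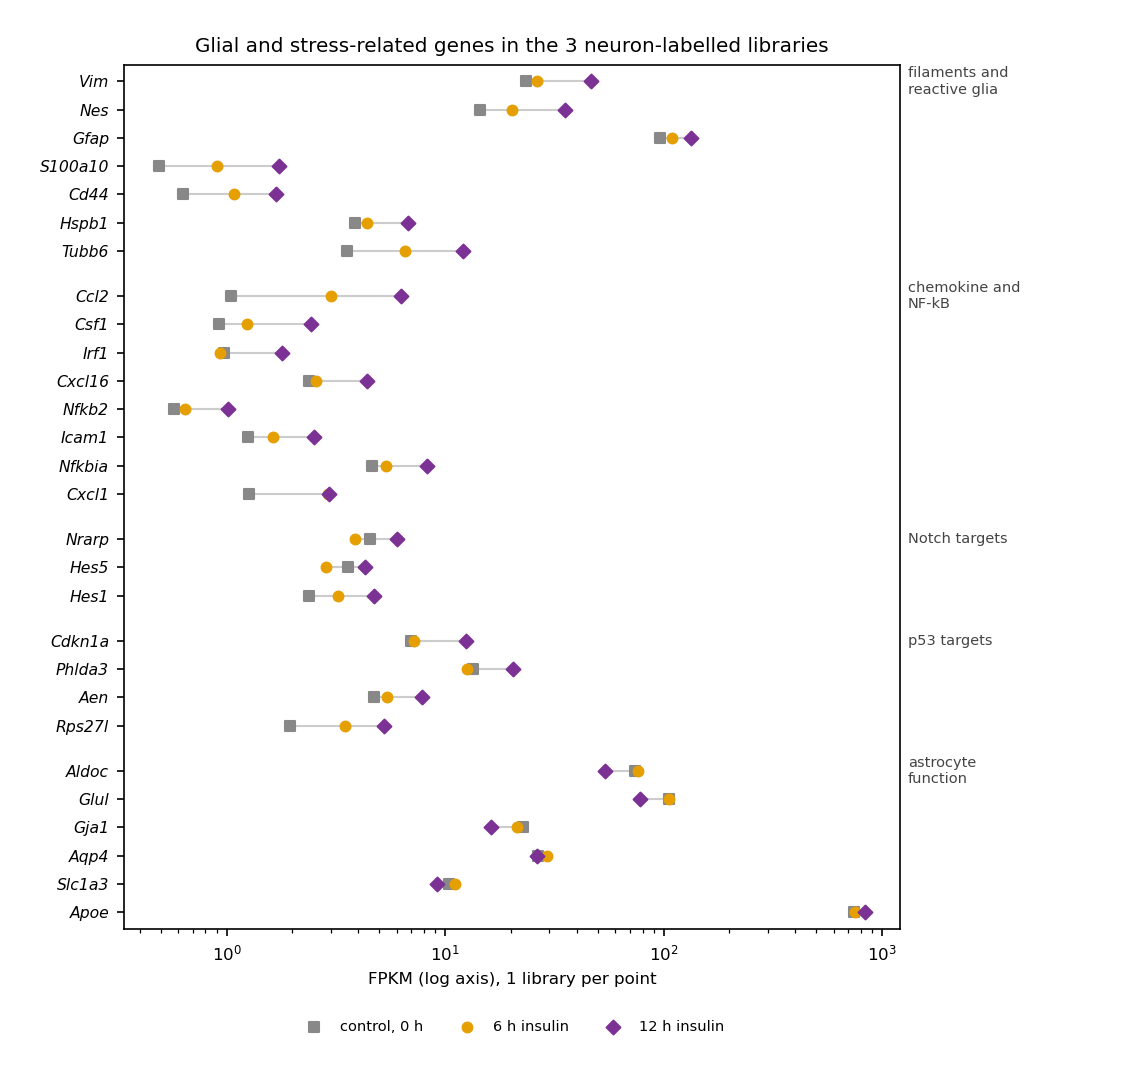
FPKM on a log axis of filament, chemokine, Notch, p53 and astrocyte genes in the control (square), 6 h (circle) and 12 h (diamond) libraries of the neuron-labelled cultures, 1 library per point. The diamond is the rightmost point for Vim, Nes, Tubb6, Ccl2, Csf1 and Cdkn1a, and the leftmost for Aldoc, Glul and Gja1.

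Immediate-early genes differed in both directions, with 7 above and 9 below 0. Junb, a growth factor-induced AP-1 subunit, was at 13.2, 13.3 and 21.5 FPKM (0.70), and Ier3, a survival gene, at 3.21, 3.59 and 5.79 FPKM (0.69). Dusp6, a feedback phosphatase of ERK, was at 3.76 and 5.33 FPKM (0.50). Fos was lower, at 3.53 and 2.25 FPKM (-0.65), as was Rgs2, a brake on G-protein signals, at 4.57 and 2.93 FPKM (-0.64). The list median was -0.08 over 16 compared, and 0 members reached 2-fold. Over the 8 members at 5 FPKM or more the median was 0.34, so its sign depended on the floor. Arc, which neuronal firing induces, was at 1.17 and 1.04 FPKM.

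FoxO and fasting response genes, a set that insulin is known to repress in part, were above 0 in 11 of 15 cases, with a median of 0.16 and 0 members at 2-fold. Txnip, a brake on glucose uptake, was at 14.4, 10.6 and 18.9 FPKM (0.84), below the control at 6 h and above it at 12 h. The triglyceride lipase Pnpla2 was at 2.30, 0.834 and 1.45 FPKM (0.80), and the cyclin gene Ccng2 at 2.83, 2.16 and 2.92 FPKM (0.43). Irs2, an insulin receptor substrate, was at 1.5 and 1.71 FPKM (0.19). The 15 compared components of the receptor and PI3K-AKT pathway had a median of 0.05, and the adaptor Shc1 differed most, at 1.24 and 1.65 FPKM. Igfbp2, a carrier of insulin-like growth factors, was at 6.95 and 10.3 FPKM (0.57).

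Lipid genes differed little between the insulin libraries. None of 16 cholesterol synthesis genes and SREBP2 targets reached 2-fold, 8 were above 0, and their median was 0.01. Idi1, of the isoprenoid branch, was at 3.66, 7.36 and 6.84 FPKM. Fatty acid oxidation and ketone genes had a median of -0.04 over 15 compared. Those of ketone use were among the lower, with Oxct1 at 1.23 and 0.986 FPKM and Bdh1 at 1.64 and 1.33 FPKM. The oxidation gate Cpt1a was at 1.07 and 1.13 FPKM. Fatty acid synthesis genes had a median of 0.12 over 12 compared, with the desaturase Fads2 at 3.57 and 4.89 FPKM (0.45). Slc27a3, an acyl-CoA synthetase outside these lists, was among the named higher genes, at 4.65, 3.88 and 6.33 FPKM (0.71).

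Energy genes had medians near 0. Glycolysis genes had a median of -0.01 over 24 compared, and Tpi1 was the member that fell past 2-fold, by 1.15 on the log2 scale. The isoforms typical of neurons or astrocytes, Eno2 (6.74 and 5.03 FPKM), Ldhb (8.19 and 6.35 FPKM) and Aldoc, were lower. The widely used Eno1 (9.26 and 11.5 FPKM), Ldha (11.5 and 14.4 FPKM) and Aldoa (47.1 and 55.8 FPKM) were higher. These isoforms were chosen after their values were seen, from a list with 12 members above 0 and 12 below. Other isoform families of the list are not given, so no general pattern of isoforms is shown. Pyruvate dehydrogenase and TCA cycle genes were below 0 in 13 of 17 cases (median -0.12), and nuclear respiratory chain genes in 30 of 42 (median -0.04). Among 13 mitochondrially encoded genes the median was 0.05. COX1 was at 1966, 6413 and 4310 FPKM (-0.57), and stood apart from the other twelve, which differed by -0.26 to 0.28. Proteasome subunits were above 0 in 29 of 30 cases and cytosolic ribosomal proteins in 37 of 44, with medians of 0.13 and 0.12.

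Most stress and remodelling lists had medians near 0 and held single genes that stood out. An exception was the circadian or glucocorticoid-responsive list, with a median of 0.40. Heat-shock genes had a median of 0.06 over 25 compared, with the small heat-shock protein gene Hspb8 at 4.12, 4.30 and 6.505 FPKM (0.60). The integrated stress response had a median of -0.04 over 25, in which Cebpb, a factor of inflammation and stress, was higher (9.59 and 14.3 FPKM) and Chac1, which degrades glutathione, lower (4.46 and 2.81 FPKM). Medians were 0.03 for the unfolded protein response (17 compared), 0.03 for hypoxia (13), 0.07 for axon injury (14), 0.09 for lysosomes (25) and 0.00 for splicing factors (29). Growth factors and BMP signals had a median of 0.08 (13 compared), extracellular matrix genes one of 0.10 (8) and cell cycle genes one of -0.02 (7). With no floor the cell cycle median was -0.28 over 34 genes, of which 11 were above 0. In the matrix list the growth-responsive gene Cyr61 was at 1.94, 4.05 and 2.61 FPKM (-0.63). Cholesterol efflux genes were above 0 in 6 of 6 cases (median 0.18), lipid droplet and uptake genes in 6 of 18 (median -0.04), postsynaptic scaffold genes in 1 of 6 (median -0.03) and circadian or glucocorticoid-responsive genes in 9 of 10 (median 0.40). All 3 compared complement and acute phase genes were above 0, with a median of 0.15 set by Apoe. Of the ciliated cell markers Foxj1 alone was compared, at 1.34, 1.33 and 2.14 FPKM (0.69). None of these compared members reached 2-fold.

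**Figure D4:**
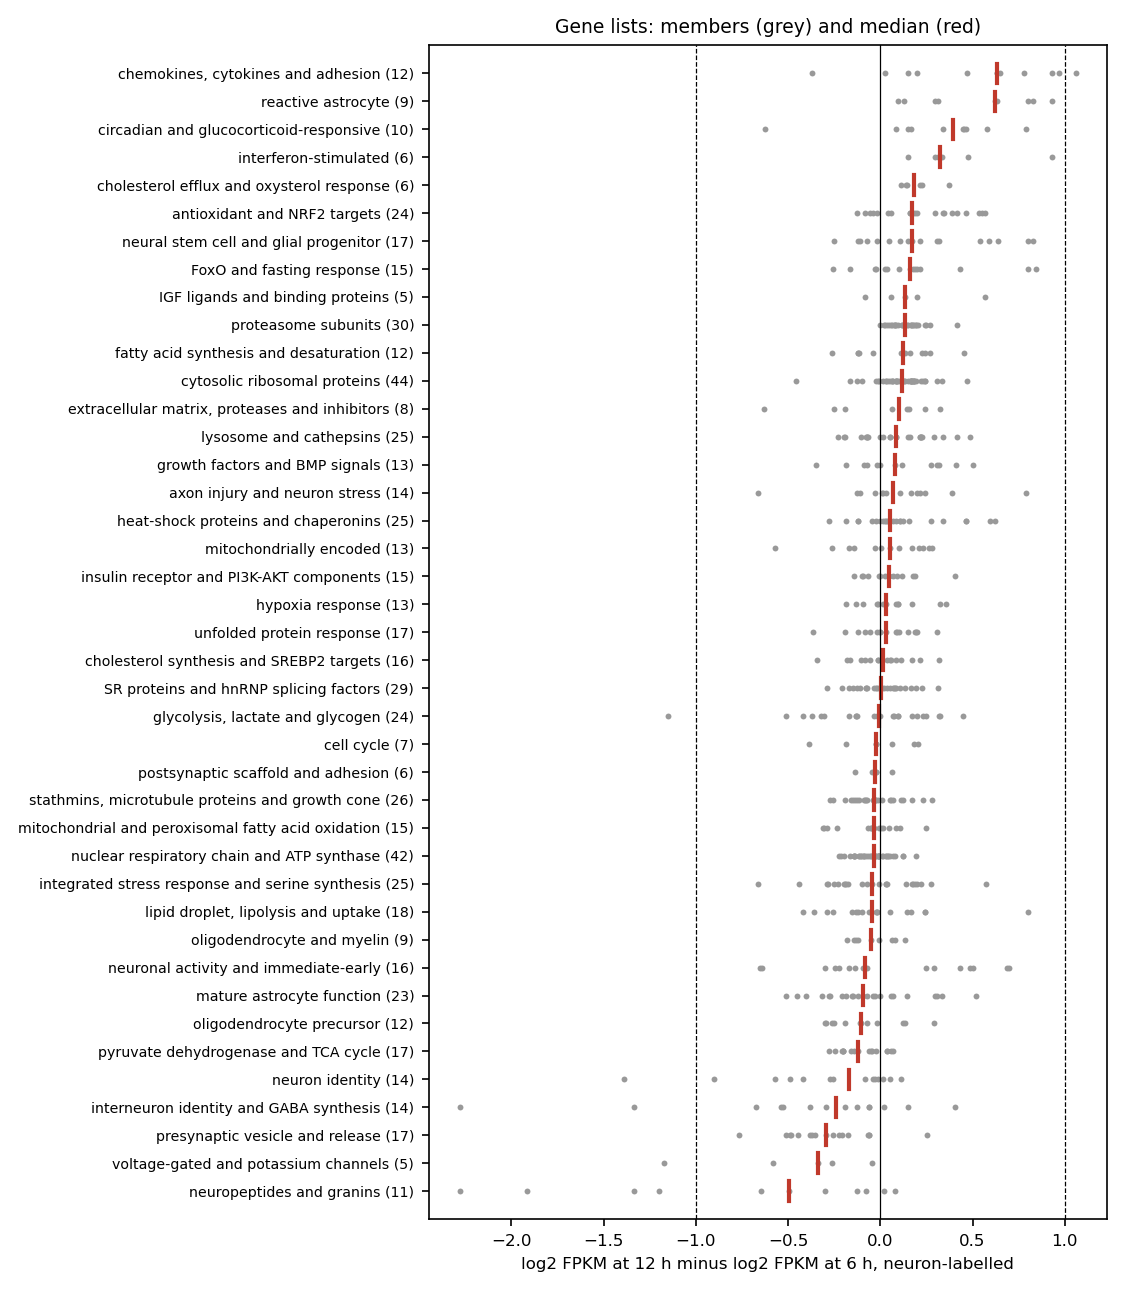
Log2 difference between 12 h and 6 h of each compared member (grey) and the median (red bar) for each fixed list with 5 or more compared members, whose number stands in brackets; dashed lines mark 2-fold. Neuropeptides and granins have the lowest median, -0.50, and chemokines the highest, 0.63.

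The controls, which do not enter the difference, group the same genes in another way. Of the compared genes 6154 had a value in both controls and at least 1 FPKM in 1 of them. The 508 genes at least 8-fold higher in the neuron-labelled than in the astrocyte-labelled control had a median difference of -0.15, and 23.2% were above 0. The 46 genes with the opposite 8-fold ratio had a median of 0.22, and 73.9% were above 0. Between these ends the medians ran in order, at -0.07 for 1009 genes, 0.01 for 4050 and 0.10 for 541. Genes of a cell type share a culture and a library, so they are not independent.

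**Figure D5:**
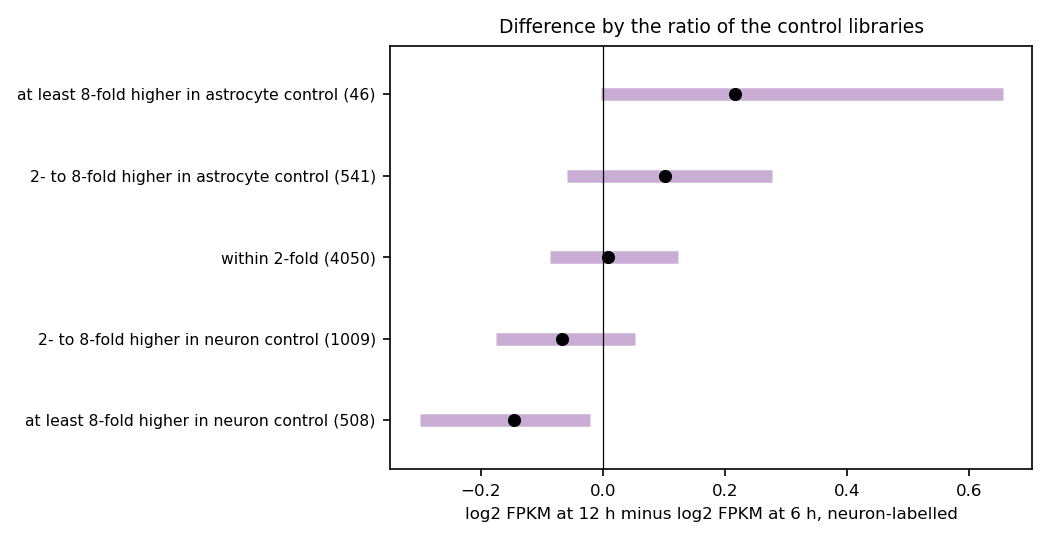
Median (point) and interquartile range (bar) of the log2 difference between 12 h and 6 h in neuron-labelled cultures, for genes grouped by the ratio of the astrocyte-labelled to the neuron-labelled control, with the number of genes in brackets. The median goes from -0.15 for genes 8-fold or more higher in the neuron-labelled control to 0.22 for the opposite ratio. The groups compare cultures: mature astrocyte genes had their larger sum in the neuron-labelled control.

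The same difference in the astrocyte-labelled cultures shares no library with the neuronal one, though the authors' quantile step used all 6. There 16 of 6260 genes (0.256%) were at least 2-fold higher at 12 h and 32 (0.511%) at least 2-fold lower. Over 5112 genes compared in both, Pearson's r between the differences was -0.01, across genes. Vim, Nes and Tubb6 differed there by 0.12, 0.03 and 0.05. Named lower genes with a value in both insulin libraries there were below 0 too, except Rpp25 (0.28) and COX1 (1.01). Some of them were under 1 FPKM there. Nefl was at 2.30 and 1.11 FPKM (-1.05), and Grcc10 and Tril differed by -0.64 and -0.53. Mature astrocyte genes were below 0 there in 9 of 12 cases, with a median of -0.37. Of all genes there 53.7% were above 0 and 46.3% below. Chemokine list genes were below 0 in 15 of 16 cases, with a median of -0.42 against 0.63 in the neuron-labelled cultures. Of that list 16 reached 1 FPKM at 6 h there and 12 at 12 h. Some thus entered only through the 6 h library, where they were higher. In the neuron-labelled cultures some entered only through the 12 h one. Ccl2 was at 12.0 and 5.18 FPKM in the astrocyte-labelled cultures. With 1 library per group, whether the cell types differ was not tested.

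Values of 3 genes need care because they are near neighbours. Grcc10, at 15.5, 11.7 and 4.64 FPKM, fell by 1.33 on the log2 scale. Tpi1, a glycolytic enzyme with pseudogene copies, fell by 1.15, from 2.07 to 0.933 FPKM. Its neighbour Spsb2, which overlaps it in the RefSeq annotation of GRCr8, rose by 1.13, to 2.5 FPKM. How the authors' counting divided reads between overlapping genes is not known. Just inside the 2-fold limit stood Kctd11 at 1.00 and Lgi2, a synaptic secreted protein gene, at -1.06. The galectin gene Lgals3 (0.960 and 1.92 FPKM) and Hs6st3_2 (-0.95) stood just outside it.

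Other named genes complete the rule. Higher at 12 h were Cdkn1a, the p21 cell cycle inhibitor (6.99, 7.18 and 12.4 FPKM), Phlda3, an inhibitor of AKT (13.3, 12.5 and 20.5 FPKM), Ifi27l2b (3.55 and 5.86 FPKM) and Slc35e4 (3.46 and 5.49 FPKM). The other higher genes at 2-fold were Armcx1, Ebna1bp2, Rin1, Rnf113a1, Rprml, Rps15al2 and Tbcb, all at 4.21 FPKM or less. Lower were a row of the heparan sulfotransferase Hs6st3 numbered Hs6st3_2 (5.59 and 2.90 FPKM), Sprn, a prion-like protein gene (5.32 and 3.22 FPKM), Tceal6 (8.44 and 5.38 FPKM) and Rpp25, an RNase P subunit (7.98 and 5.21 FPKM). Hist1h1a, a linker histone gene (8.01 and 5.26 FPKM), the selenium carrier gene Sepp1 (6.54 and 4.45 FPKM) and the orphan receptor gene Gpr162 (9.27 and 6.34 FPKM) were lower as well. The other lower genes at 2-fold were H2afj, Lynx1 and Nek2l1, at 1.68 FPKM or less.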

How the data were processed

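RNA was sequenced from 6 libraries, 1 per group, after ribosomal RNA depletion with a stranded total RNA kit, per the labels' protocols. The deposited values are log2 FPKM that the authors had brought to common quantiles over all 6 libraries. Unit, log and quantile step are named by the table, whose columns did share their quantiles, and the base of the log was inferred from the values. Software in the submitters' processing notes was bcl2fastq 2.17.1.14 and Partek 6.5, and the build Rnor 6.0. Aligner and annotation: not given in the sources used here. The table holds no counts, so depth is unknown and no counting interval is given.

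Of 37185 rows, 2 repeated symbols were reduced to the row with the higher mean. Blank cells were taken as no value. All 6 columns were used, leaving 0 unused. The difference is the deposited log2 value at 12 h minus that at 6 h, with no pseudocount, computed with Python 3.11.15 and pandas 2.3.3 and tested on simulated data. "Rose" and "fell" are used only at a log2 difference of 1 or more in size. With 1 library per group no test could be made. Each of 49 gene lists (1356 entries) is described by counts and its median beside all genes compared. The members and lists were chosen with earlier results of these data known. Named genes are those 15 in either direction that differed most among genes at 5 FPKM or more in either library, without locus identifiers, pseudogene rows and small RNA symbols. Named list members are those at 2-fold, those with the largest differences and markers. Other genes, including list members given for comparison, Lgals3, the neighbour Spsb2 and the genes at 2-fold under 5 FPKM, were chosen after their values were seen. Alternatives were other floors, log2(FPKM + 1), centring and a 1.5-fold limit. Promoter windows were matched by symbol to RefSeq for 3982 compared genes. A few genes are not reported here.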

Additional observations from a re-analysis of the deposited data

Results flagged for a closer look

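Some genes moved in opposite directions in the cell types between 6 h and 12 h, each by 0.5 or more on the log2 scale. The difference between the cell types was not tested, since each value comes from 1 library per time. Ccl2 differed by 1.06 in the neuron-labelled and -1.22 in the astrocyte-labelled cultures. Cxcl16 differed by 0.78 and -0.73, and the median of the chemokine list by 0.63 and -0.42. In both cell types some members of that list were compared only because their higher library reached 1 FPKM. The growth factor-response genes Junb (0.70 and -0.70) and Dusp6 (0.50 and -0.79) and the Notch target Nrarp (0.64 and -0.53) went the same ways as Ccl2. COX1, of the mitochondrial genome, differed by -0.57 and 1.01. The transfer RNA row Trnaq-cug_9 was blank in the neuron-labelled control and at 6 h and at 1.30 FPKM at 12 h. Its gene is very short, so its FPKM rests on few bases.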

How the results depend on the processing

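With 1 library per group no library could be left out. No paired analysis was possible because each group held 1 library. Of 41 list medians, all stayed within 0.1 (log2) under centring and under a floor on the mean of both libraries, 36 did with no floor, 36 with log2(FPKM + 1) and 28 of 39 with a floor of 5 FPKM. No list median of 0.1 or more in size and no gene at 2-fold changed sign. The immediate-early median, -0.08, was 0.34 with a floor of 5 FPKM. With no floor the interferon median was 0.15 and the circadian one 0.12. Counts of genes at 2-fold depended on the floor. With a floor of 5 FPKM, 3 genes were higher and 11 lower at 12 h in the neuron-labelled cultures, and 4 higher and 9 lower in the astrocyte-labelled ones. With no floor the counts were 1554 and 1367, and 1215 and 1080. With log2(FPKM + 1) they were 3 and 12, and 6 and 14. A floor on the mean left 23 higher in the neuron-labelled cultures. A limit of 1.5-fold, added after seeing the data, gave 154 higher and 113 lower. At a floor of 5 FPKM the medians were -1.20 for 3 neuropeptide genes, -0.042 for 7 neuron identity genes and 0.42 for 4 chemokine genes. With no floor they were 0.50 for reactive astrocyte and 0.38 for chemokine genes. With log2(FPKM + 1) they were -0.38 for neuropeptide, 0.36 for reactive astrocyte and 0.36 for chemokine genes, as the added constant shrinks low genes.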

Other observations

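Targets of the tumour suppressor p53 were examined after Cdkn1a and Phlda3 were seen among the named genes, with a list drawn up after that. Of 20 members compared, 18 were higher at 12 h than at 6 h (48.3% of all genes compared were), with a median of 0.26 and 0 at 2-fold. The count includes Cdkn1a, and the list was prompted by these same values, so it is a description only. Mdm2, which targets p53 for degradation, went from 1.91 FPKM without insulin to 2.62 at 6 h and 4.42 at 12 h (0.75). The nuclease gene Aen was at 4.74, 5.41 and 7.83 FPKM (0.53) and the ribosomal protein-like gene Rps27l at 1.95, 3.47 and 5.26 FPKM (0.60). The members with negative differences were Plk2 and Plk3, at -0.10 and -0.04. In the astrocyte-labelled cultures 13 of 22 were above 0, with a median of 0.06.

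Clock output genes, also listed after values were seen, were above 0 in 6 of 7 cases, with a median of 0.45. Dbp, a clock-driven factor, was at 4.73, 2.88 and 4.30 FPKM (0.58) and the repressor Nr1d1 at 3.53, 2.46 and 3.41 FPKM (0.47). Both were lower at 6 h than in the control and close to it at 12 h, while Nfil3, which opposes Dbp, was at 1.55 and 1.008 FPKM in the insulin libraries (-0.62). Replication-dependent histone genes were below 0 in 23 of 28 cases in the neuron-labelled cultures, with a median of -0.23, and in 27 of 27 in the astrocyte-labelled ones, with a median of -0.38. Antioxidant genes fixed as a list were above 0 in 19 of 24 cases, with the pentose phosphate enzyme Taldo1 at 9.49 and 14.1 FPKM (0.57) and Nqo1 at 9.36 and 13.7 FPKM (0.55).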
